A study of Mus musculus with 6 samples.

Results

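The 10 genes described here encode the actin core of the intestinal microvillus, the proteins that tie that core to the membrane, and the complex that links microvillus tips to each other. They are Vil1, Espn, Pls1, Eps8, Ezr, Myo1a, Cdhr2, Cdhr5, Ush1c and Myo7b. They were chosen by symbol for their known role in the brush border, in a rule that uses no measured value but was written with earlier results of these data known, and make up 10 of the 20409 features in the count table. RNA was sequenced in bulk from the duodenal villus epithelium of 6 mice, 3 double mutants (Smad4 LOF: β-catenin GOF) and 3 wild-type mice. The double mutants carried Smad4 fl/fl, Ctnnb exon3 fl/wt and Villin-CreERT2 on a C57BL6-enriched background and received tamoxifen at 0.05 g/kg on 4 consecutive days, so that Cre deleted Smad4 and removed exon 3 of β-catenin, which stabilizes the protein. Their villi were taken 7 days after induction. Wild-type mice were uninjected age-matched littermates, so that the mutations and tamoxifen itself cannot be told apart. Each group held 1 male, replicate 1, and 2 females. Cre was driven by the promoter of Vil1, which is also the first gene described here, and whether any counted read came from the transgene was not tested.

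The microvilli of an enterocyte form the brush border, the absorptive surface that carries digestive enzymes and transporters. Each microvillus holds a bundle of parallel actin filaments whose rootlets end in the terminal web, a mesh of myosin and spectrin under the apical membrane. Bundling proteins pack the filaments, ezrin and a class I myosin attach them to the membrane, and protocadherins at the tips of neighbouring microvilli bind each other and so space the protrusions.

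Since the genes are compared as a group that shares a place in the cell, the promoter sequences of 4 of them are shown, those of the gene that also drives Cre (Vil1), of a linker and a protocadherin whose transcripts fell below 50% of wild-type (Ezr and Cdhr2), and of the protocadherin with the smallest called change (Cdhr5). Each run is the 250 bases up to the start site in the RefSeq promoter table (build GRCm38.p6), read in the direction of the gene, and each matched 1 place in mm9, whose coordinates are given. Capitals mark the letters of a searched motif.
Vil1, chr1:74455708-74455957, plus strand: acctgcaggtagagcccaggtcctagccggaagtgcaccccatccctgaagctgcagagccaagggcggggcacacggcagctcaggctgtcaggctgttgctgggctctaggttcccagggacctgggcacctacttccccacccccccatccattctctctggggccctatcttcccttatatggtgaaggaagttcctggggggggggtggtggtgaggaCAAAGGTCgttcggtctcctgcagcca
Ezr, chr17:6987130-6987379, minus strand: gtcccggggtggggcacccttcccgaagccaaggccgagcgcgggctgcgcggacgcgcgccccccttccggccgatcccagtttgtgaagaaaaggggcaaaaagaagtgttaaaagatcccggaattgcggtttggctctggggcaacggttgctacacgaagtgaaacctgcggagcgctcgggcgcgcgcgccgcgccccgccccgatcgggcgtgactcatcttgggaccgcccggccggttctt
Cdhr2, chr13:54802574-54802823, plus strand: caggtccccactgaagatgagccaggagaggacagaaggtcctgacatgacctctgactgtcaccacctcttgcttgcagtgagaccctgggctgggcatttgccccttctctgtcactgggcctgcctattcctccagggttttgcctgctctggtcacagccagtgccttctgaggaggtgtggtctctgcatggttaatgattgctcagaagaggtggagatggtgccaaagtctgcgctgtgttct
Cdhr5, chr7:148462686-148462935, minus strand: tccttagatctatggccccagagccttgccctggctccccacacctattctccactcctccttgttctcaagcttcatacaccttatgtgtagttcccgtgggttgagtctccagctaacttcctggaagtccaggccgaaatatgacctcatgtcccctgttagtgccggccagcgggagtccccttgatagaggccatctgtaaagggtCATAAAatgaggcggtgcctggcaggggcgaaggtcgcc
The GC content of these runs was 62.8% for Vil1, 67.2% for Ezr, 56.0% for Cdhr2 and 55.6% for Cdhr5. The capitals in Vil1 are CAAAGGTC, 27 to 20 bases before the start, and match a core of the HNF4 motif written CAAAGNNC. The capitals in Cdhr5 are CATAAA, 39 to 34 bases before the start, the reverse complement of the CDX motif TTTATG. Of 10 promoters found for 8 of the genes (3 for Espn), 2 held the HNF4 letters (Vil1 and Pls1), against 15.4% of all 32851 promoters in the table, and 2 held the CDX letters TTTATG or TTTATT (Cdhr5 and 1 of Espn), against 25.5%. None of the 10 held the TCF/LEF letters CTTTGAT or CTTTGTT, found in 8.06% of all promoters, or the SMAD letters GTCTAGAC, found in 0.167%. Both strands were searched, and the HNF4 and TCF/LEF letters share CAAAG on opposite strands. A match describes letters in a window and is no evidence of binding.

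The libraries held 19678507 to 26337318 counts, and 13346 genes passed the filter on low counts, with all 10 microvillus genes among them. Smad4, the deleted gene, was lower in every double mutant mouse (26.05 to 36.83 CPM, normalized counts scaled by TMM to a common library size) than in every wild-type mouse (119.8 to 180.1). The 10 enterocyte markers summed to 55595 ± 3949 CPM in wild-type and 32341 ± 438 in the double mutant (SD, n = 3 each), and 7 of the 10 fell. The 10 crypt and proliferation markers summed to 156 ± 56.1 and 371 ± 43.7, and 7 of them rose. Leukocyte markers summed to 77.4 to 147 CPM in wild-type and 63.2 to 104 in the double mutant, and 2 of the 6 tested fell, Ptprc and Cd8a, with a median log2 fold change of -0.92 over the 6. Stroma markers summed to 0.253 to 0.870 and 0.949 to 4.93, with Dcn, Lum and Cdh5 not in the table. All 7 tested tuft markers fell, and 1 of 8 goblet markers rose. Wild-type replicate 1 stood apart by its goblet markers, at 125 CPM against 11039 to 11616 in the other wild-type mice and 4669 to 5064 in the double mutants. The part of these markers in the results below was not tested, and in bulk RNA fewer cells of a type and less RNA per cell cannot be told apart.

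Transcripts of the microvillus genes were lower in the double mutant villi as a group. In each of the 10, every double mutant mouse was below every wild-type mouse, an arrangement seen in 24.2% of all tested genes. With an adjusted p under 0.05 in edgeR's quasi-likelihood test over all 13346 genes, 9 of the 10 fell and 0 rose, against 17% of all tested genes that fell and 19.7% that rose. Among the 1058 genes that were at least as high per kb of exon in wild-type as Espn, the lowest of the 10, 39.4% fell. A fall of at least 1 on the log2 scale was called for Espn, Ezr and Cdhr2, 3 of 10 against 6.23% of tested genes. The stricter log2 threshold of 2 used in the study's methods was passed by 0 of the 10, against 2.26% of tested genes. The median log2 fold change was -0.84 over the 10 and 0.02 over all tested genes. Scaled by library size alone, the median of all genes moved to 0.22 and that of the 10 to -0.65, 7 of the 10 were still called lower, and the share of all calls that were lower went from 46.3% to 27.6%. None of the 10 changed direction under any alternative, and without wild-type replicate 1, 9 of the 10 were again called lower.

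**Figure D1:**
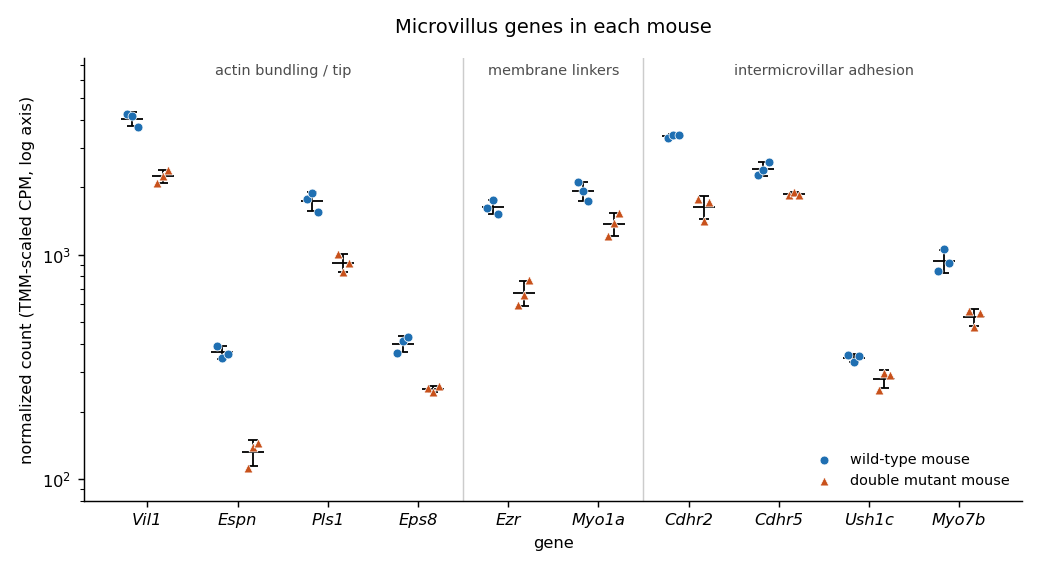
Normalized counts (TMM-scaled CPM, log axis) of the 10 genes in each mouse, with wild-type as circles and double mutant as triangles, and bars for the mean ± SD (n = 3). Every triangle of a gene lies below every circle of that gene, with the widest gap for Espn and the narrowest for Ush1c, Cdhr5 and Myo1a.

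The 4 genes of the actin core all fell, to a summed 54.1% of wild-type, with a median log2 fold change of -0.88. Vil1 (ENSMUSG00000026175, mm9 chr1:74455950-74482133, plus strand, 3551 bases of exon) encodes villin, which bundles actin filaments and severs them when calcium is high. Its transcript stood at 4261, 4172 and 3709 CPM in wild-type replicates 1 to 3 and at 2093, 2249 and 2389 in the double mutants. All wild-type mice were above all mutants, by more than the spread in either group. Vil1 fell by 0.85 on the log2 scale (SE 0.121, edgeR adjusted p = 0.00120), so that 55.4% of the wild-type mean was left. Of its exonic bases, 50 (1.41%) overlap exons of Usp37 on the other strand, and the strand setting of the counting is not given in the sources used here.

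Espn (ENSMUSG00000028943, mm9 chr4:151494440-151526480, minus strand) encodes espin, a protein that bundles and lengthens parallel actin bundles. It had 392.9, 345.3 and 362.6 CPM in wild-type and 112.3, 138.4 and 145.2 in the double mutants. The highest mutant mouse lay far below the lowest wild-type mouse. Its fall of 1.48 on the log2 scale was the largest of the 10 (SE 0.129, edgeR adjusted p = 0.000170), to 35.96% of wild-type.

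Pls1 (ENSMUSG00000049493, mm9 chr9:95653061-95745730, minus strand) encodes plastin-1, also called fimbrin, which cross-links the filaments of the core. It was measured at 1773, 1887 and 1552 CPM in wild-type and 1009, 837.5 and 915.8 in the double mutants. The groups were well apart, and the log2 ratio of Vil1 to Pls1 overlapped between them. Pls1 fell by 0.92 on the log2 scale (SE 0.129, edgeR adjusted p = 0.00116).

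Eps8 (ENSMUSG00000015766, mm9 chr6:137425766-137603397, minus strand) encodes a protein that caps and bundles actin at the microvillus tip. Wild-type mice had 365.1, 411.8 and 427.8 CPM, and double mutants 253.7, 243.4 and 259.3. The mutants lay close together, and wild-type replicate 1 was the lowest of its group. Eps8 fell by 0.67 (SE 0.108, edgeR adjusted p = 0.00208), to 62.8% of wild-type.

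The 2 genes that join the core to the membrane both fell, to a summed 57.7% of wild-type. Ezr (ENSMUSG00000052397, mm9 chr17:6942390-6987133, minus strand) encodes ezrin, which in its phosphorylated form binds actin at one end and membrane proteins at the other. It stood at 1614, 1757 and 1521 CPM in wild-type and 599.4, 659.0 and 770.5 in the double mutants. No mutant mouse came near the wild-type range. Ezr fell by 1.27 on the log2 scale (SE 0.133, edgeR adjusted p = 0.000337), to 41.5% of wild-type. Of its exonic bases, 4 overlap exons of Sytl3 on the other strand.

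Myo1a (ENSMUSG00000025401, mm9 chr10:127142226-127157943, plus strand) encodes brush border myosin I, a motor that bridges the bundle and the membrane along the shaft. It had 2113, 1927 and 1731 CPM in wild-type and 1207, 1388 and 1528 in the double mutants. The highest mutant and the lowest wild-type mouse were near each other, and both groups were spread. Myo1a fell by 0.48 (SE 0.136, edgeR adjusted p = 0.0232), to 71.5% of wild-type. The call was lost without wild-type replicate 2 (-0.49, adjusted p = 0.0598), without double mutant replicate 1 (-0.39, adjusted p = 0.0708), without double mutant replicate 2 (-0.49, adjusted p = 0.0657) and under library-size scaling alone (-0.29, adjusted p = 0.0990), all in edgeR. With the replicate number as a block the Myo1a call was lost too (-0.49, edgeR adjusted p = 0.0721). The log2 ratio of Ezr to Myo1a within a library was lower by 0.79 in the double mutants and the groups did not overlap (two-sided exact permutation test, p = 0.1, which is the lowest value possible with 3 mice a group).

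The 4 genes of the intermicrovillar adhesion complex were lower as well, to a summed 60.9% of wild-type, and 3 of them passed the test. Cdhr2 (ENSMUSG00000034918, mm9 chr13:54802822-54838023, plus strand) encodes the longer of the tip protocadherins. It had 3301, 3427 and 3402 CPM in wild-type and 1774, 1419 and 1713 in the double mutants. The wild-type mice were nearly alike and stood well above every mutant. Cdhr2 fell by 1.05 (SE 0.127, edgeR adjusted p = 0.000611), to 48.4% of wild-type.

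Cdhr5 (ENSMUSG00000025497, mm9 chr7:148454984-148462685, minus strand) encodes the partner to which Cdhr2 binds across the gap between microvilli. It was at 2263, 2390 and 2594 CPM in wild-type and 1855, 1909 and 1843 in the double mutants. The groups did not overlap, with a smaller gap than for Cdhr2. Cdhr5 fell by 0.37 (SE 0.112, edgeR adjusted p = 0.0313), to 77.4% of wild-type. This call held without wild-type replicate 1 and was lost without each of the other 5 mice, with an edgeR adjusted p of 0.0701 without wild-type replicate 2, 0.0955 without wild-type replicate 3, and 0.0749, 0.0760 and 0.109 without double mutant replicates 1, 2 and 3, and also under library-size scaling alone (-0.18, adjusted p = 0.250) and with no low-count filter (-0.36, adjusted p = 0.0589). With the replicate number as a block the Cdhr5 call was lost too (-0.37, edgeR adjusted p = 0.0956). The log2 ratio of Cdhr2 to Cdhr5 within a library was lower by 0.68 in the double mutants, again without overlap (two-sided exact permutation test, p = 0.1).

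Ush1c (ENSMUSG00000030838, mm9 chr7:53450720-53493873, minus strand) encodes harmonin, the scaffold that gathers the tails of both protocadherins. It had 358.1, 332.2 and 353.5 CPM in wild-type and 250.02, 297.9 and 289.6 in the double mutants. All mutants were below all wild-type mice, at a log2 fold change of -0.32 that just missed the threshold (SE 0.111, edgeR adjusted p = 0.0521). DESeq2 gave an adjusted p of 0.0379, limma-voom one of 0.0466 and edgeR with RLE factors one of 0.0418, so that the call for Ush1c depends on the scaling and the tool.

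Myo7b (ENSMUSG00000024388, mm9 chr18:32118888-32196615, minus strand) encodes the myosin that carries the complex to the tips. Its values were 845.2, 1061 and 920.0 CPM in wild-type and 558.6, 475.3 and 552.3 in the double mutants. The mutant mice were all well below the wild-type range. Myo7b fell by 0.83 (SE 0.130, edgeR adjusted p = 0.00182), to 56.1% of wild-type, and its log2 ratio to Ush1c was lower in every mutant than in every wild-type mouse (two-sided exact permutation test, p = 0.1).

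**Figure D2:**
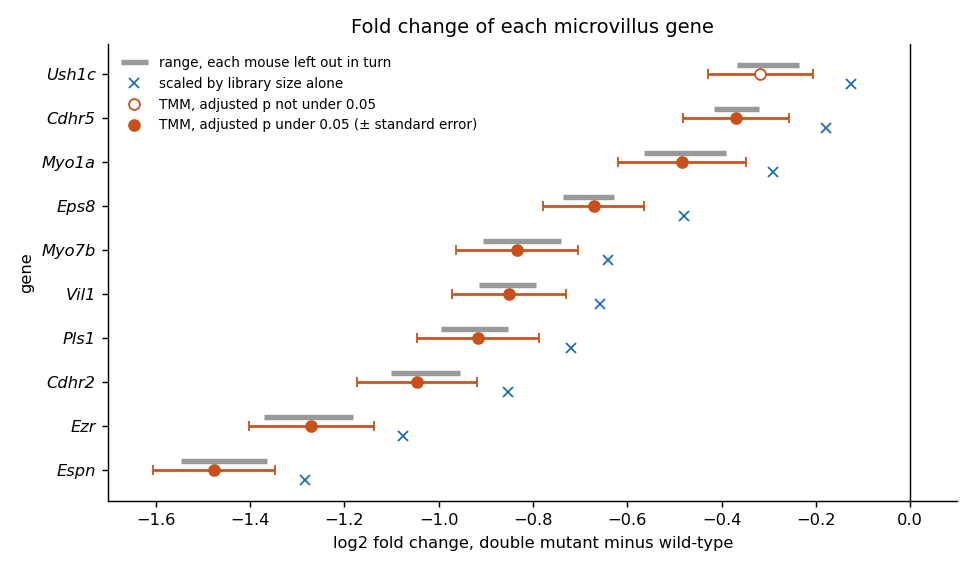
Log2 fold change of each gene, double mutant minus wild-type, with its standard error (circles and whiskers), the range when each mouse was left out in turn (grey bars) and the value when scaled by library size alone (crosses). All marks lie below 0, and the circles run from -1.48 for Espn to -0.32 for Ush1c, which is open for its adjusted p of 0.0521 and whose cross, at -0.13, is the mark nearest 0.

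The log2 fold changes ran from -1.48 for Espn to -0.32 for Ush1c. Within each library the log2 ratio of every pair was taken, 45 pairs in all, and in 30 of them the ratios of the double mutants did not overlap those of wild-type, while 15 overlapped. Over all pairs of tested genes, 51.7% did not overlap, and over pairs of the 1058 genes at least as high as Espn, 58.3% did not, and nothing particular to the microvillus genes is read from the count. With 3 mice a group no pair could go below p = 0.1 in the exact permutation test (0.15 after Benjamini-Hochberg adjustment over the 45 pairs). The ratio of Espn to Ush1c differed most among those given here, by -1.16. The ratios of Vil1 to Pls1 (0.06), Vil1 to Myo7b (-0.02) and Cdhr5 to Ush1c (-0.05) overlapped between the groups, and the spread over mice sets how small a difference could be seen.

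Per kb of exon, the 10 genes were among the more abundant transcripts of the wild-type villus. Vil1 stood at 1140 ± 83.4 RPKM (TMM-scaled CPM per kb of exon, mean ± SD, n = 3), followed by Cdhr5 at 915 ± 63.3, Cdhr2 at 818 ± 16.1, Myo1a at 568 ± 56.4, Ezr at 496 ± 36.1 and Pls1 at 447 ± 43.8. Myo7b at 142 ± 16.5, Ush1c at 94.9 ± 3.77, Eps8 at 70.1 ± 5.68 and Espn at 61.4 ± 4.03 formed the lower end. The ranges of Myo1a and Ezr, of Ezr and Pls1, and of Eps8 and Espn overlapped in wild-type, and all other neighbours were separate. In the double mutant Cdhr5 led at 708 ± 13.2 RPKM, above Vil1 at 632 ± 41.8. Cdhr2, at 396 ± 46.0, had moved below Myo1a at 406 ± 47.5, but their ranges overlapped. Ezr at 206 ± 26.4 and Pls1 at 237 ± 22.03 also overlapped, as did Myo7b at 79.9 ± 7.003 and Ush1c at 76.1 ± 6.97. Espn remained lowest at 22.1 ± 2.91 RPKM. In all, the 10 genes accounted for 1.61% ± 0.0400 of a wild-type library and 1.06% ± 0.0458 of a double mutant one (SD, n = 3).

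Most of these genes have paralogs, and the share of each family's level per kb of exon shows how each family's level was divided. Pls1 made up 99.7% of the plastins in wild-type and 99.5% in the double mutant, with Pls3 and Lcp1 at most 1.28 RPKM in any mouse. Ezr held 99.8% and 99.7% of the ezrin, radixin and moesin family, and Vil1 99.4% and 99.8% of the villins. Eps8 shared its family with Eps8l3 and Eps8l2 and made up 22.6% ± 0.963 of it in wild-type and 24.4% ± 1.09 in the double mutant, where Eps8l2 and Eps8l3 also fell. Espnl and Vill, the paralogs of Espn and Vil1, did not pass the filter on low counts.

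For the myosins, Myo7b and Myo1a each share a family with genes that are expressed in these villi. Myo7b made up 92.7, 91.7 and 92.0% of the class VII myosins in wild-type and 85.9, 84.5 and 87.4% in the double mutants, and the rest was Myo7a. The groups did not overlap, while Myo7a itself had a log2 fold change of 0.10 (edgeR adjusted p = 0.627), which was -0.021 without wild-type replicate 1. The log2 ratio of Myo7b to Myo7a was lower by 0.94 in the double mutants (two-sided exact permutation test, p = 0.1, adjusted 0.225 over 9 paralog pairs). Myo1a made up 86.2% ± 1.67 of the 5 class I myosins listed in wild-type and 81.1% ± 3.26 in the double mutant, and Myo1d 8.08% ± 0.633 and 12.8% ± 2.72. Myo1d itself had a log2 fold change of 0.25 that did not pass the threshold (edgeR adjusted p = 0.170), and its groups overlapped.

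**Figure D3:**
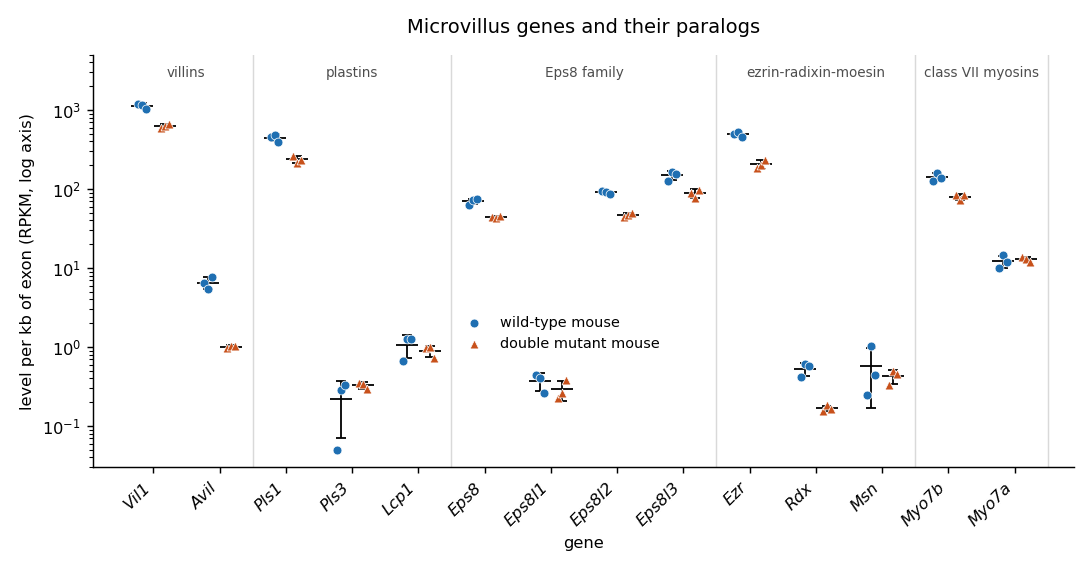
Level per kb of exon (RPKM, log axis) of microvillus genes and their paralogs in each mouse, circles for wild-type and triangles for double mutant, with mean ± SD (n = 3). Vil1, Pls1 and Ezr stand far above their paralogs in both groups, and Myo7b is lower in the double mutants while Myo7a overlaps between the groups. Vill and the espins are not drawn.

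Other genes of the microvillus and terminal web were counted from lists, 54 genes of which 53 were in the table and 48 were tested. Of these, 16 fell, 1 rose and 31 did not pass the threshold, with a median log2 fold change of -0.23. Over all tested genes 17% fell and 19.7% rose, shares against which the counts of the lists below are also to be read. Of the 48 genes, 16 were at least as high per kb of exon in wild-type as Espn, and 7 of these 16 fell, against 39.4% of all genes at that level. Of 8 genes tested on the list of ezrin's partners and kinases, which also holds its paralogs Rdx and Msn, 5 fell. The list's median was -0.92. Stk10, a kinase that phosphorylates ezrin, dropped from 56.7, 65.4 and 54.0 CPM to 5.35, 4.64 and 8.21, a log2 fold change of -3.27 (SE 0.218, edgeR adjusted p = 5.9e-05). Slk, the related kinase, fell by 0.57 (edgeR adjusted p = 0.00406). Of the 3 listed scaffolds, which bind ezrin or its partners, 2 fell, Slc9a3r1 by 1.15 (edgeR adjusted p = 0.000737) and Pdzk1 by 1.61 (edgeR adjusted p = 0.000577), while Slc9a3r2, with at most 12 counts in any mouse, did not pass (edgeR adjusted p = 0.938). Radixin (Rdx) fell by 1.65 (edgeR adjusted p = 0.00581), from a low level of 2.00 to 2.94 CPM.

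In the adhesion complex Anks4b, the scaffold that joins Ush1c and Myo7b, fell from 240, 263 and 261 CPM to 150, 156 and 167, by 0.69 on the log2 scale (edgeR adjusted p = 0.00143). Of the 5 genes tested on that list, 1 passed the threshold, Anks4b. Of 16 other actin-core genes tested, 4 fell, namely Eps8l2 by 0.94 (edgeR adjusted p = 0.000450), Eps8l3 by 0.75 (edgeR adjusted p = 0.00414), the actin nucleator Cobl by 0.85 (edgeR adjusted p = 0.00589) and Avil by 2.69 (edgeR adjusted p = 5.9e-05). Avil, advillin, is also on the tuft cell list. Of 8 other apical myosins, Myo5b, a vesicle motor, fell by 0.61 (edgeR adjusted p = 0.00888) and Myo1e by 0.43 (edgeR adjusted p = 0.0137).

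In the terminal web 4 of 10 tested genes fell and 1 rose, against 17% and 19.7% of all tested genes. Myh14, a nonmuscle myosin heavy chain, fell by 0.71 (edgeR adjusted p = 0.00387). The spectrins Sptbn1 and Sptan1 fell by 0.62 and 0.44 (edgeR adjusted p = 0.0106 and 0.0243) and Actn4, an α-actinin, by 0.55 (edgeR adjusted p = 0.00517). Its paralog Actn1 rose, from 5.87, 18.3 and 17.2 CPM to 58.8, 68.5 and 62.6, at a log2 fold change of 2.20 (SE 0.399, edgeR adjusted p = 0.00632). Myo1e lost its call without wild-type replicate 3 and without double mutant replicate 3 (edgeR adjusted p = 0.0520 and 0.0601), and Sptan1 without wild-type replicate 2, double mutant replicate 2 and double mutant replicate 3 (edgeR adjusted p = 0.0881, 0.0838 and 0.0569). Both genes also lost their calls under library-size scaling alone (edgeR adjusted p = 0.135 and 0.159). The same held with the replicate number as a block (edgeR adjusted p = 0.0526 and 0.0748). Of the genes for hair-cell links, 1 could be tested, Whrn, at 0.67 (edgeR adjusted p = 0.0712), and without wild-type replicate 1, the mouse with few goblet marker counts, it passed as higher (0.92, edgeR adjusted p = 0.0128).

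**Figure D4:**
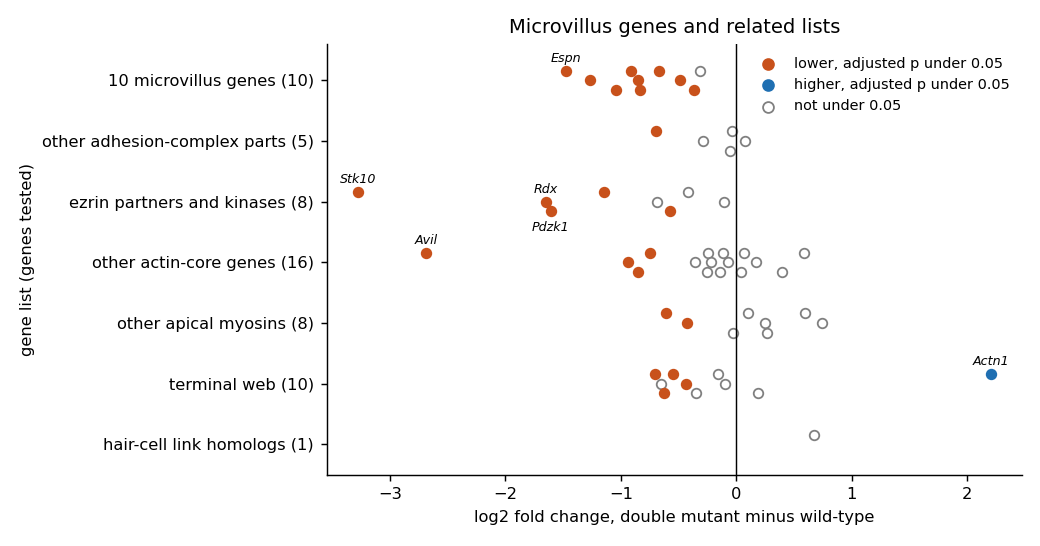
Log2 fold change of each tested gene (double mutant minus wild-type), by list, with the number tested in brackets. Orange points passed as lower, blue as higher and open points did not pass. Of the 10 microvillus genes 9 are orange, and the only blue point is Actn1 at 2.20. On the list of ezrin partners and kinases, which also holds the paralogs Rdx and Msn, 5 of 8 are orange.

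The levels were last set against actin and against other enterocyte transcripts in the same library, as ratios of summed normalized counts that take no account of gene length. Actb and Actg1, the actins of the epithelium, had log2 fold changes of -0.24 and -0.14 and did not pass the threshold (edgeR adjusted p = 0.218 and 0.385), and Actg1 was at 0.057 when scaled by library size alone. The 10 genes summed to 3.19, 2.79 and 3.22 times the actin counts in wild-type and to 2.24, 1.83 and 2.11 times in the double mutants. These groups did not overlap. Against the 10 enterocyte markers, which share no gene with the microvillus list, the ratios were 0.290, 0.320 and 0.320 in wild-type and 0.297, 0.302 and 0.321 in the double mutants. Here the groups overlapped, as they did for the core, linker and adhesion genes taken apart. The summed microvillus genes stood at 57.7% of wild-type and the summed enterocyte markers at 58.2%, but the markers by themselves ranged from 24.2% (Lct, lactase) to 93.7% (Fabp2, a fatty acid binding protein), and the sum is weighted towards abundant ones.

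**Figure D5:**
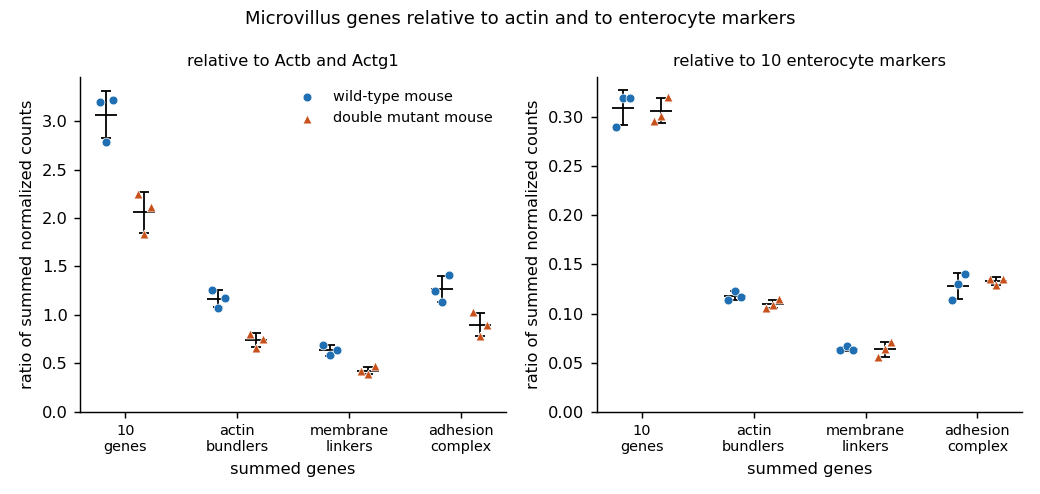
Summed normalized counts of the 10 genes and of their 3 roles in each mouse, divided by those of Actb and Actg1 (left) or of 10 enterocyte markers (right), with mean ± SD (n = 3). Relative to actin every double mutant mouse is below every wild-type mouse, and relative to enterocyte markers the groups overlap.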

How the data were processed

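Bulk poly(A)-enriched RNA-seq of duodenal villus epithelium, isolated with EDTA, was analysed from 6 mice, 3 per group as the labels give them. The authors deposited raw counts per gene, with 1 column per mouse, made by HISAT2 alignment to mm9 and featureCounts. The strand and multi-mapping settings are not given in the sources used here, and no column lacked a sample (0). There were no molecular identifiers, so a limit set by counting covers counting error only. A count of 3, the detection floor, is 0.125 to 0.163 CPM.

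Symbols, positions and exon lengths came from GENCODE for mm9, which held 20032 of 20073 Ensembl identifiers. In R 4.3.3 with edgeR 4.0.16, filterByExpr kept 13346 genes, libraries were scaled by TMM, and the groups were compared by the quasi-likelihood test (glmQLFit with robust fitting, glmQLFTest). The p-values were adjusted by Benjamini-Hochberg over these genes, with a threshold of 0.05. Standard errors are the log2 fold change over the square root of F. The alternatives were RLE factors, library size alone, DESeq2 1.42.0, limma 3.58.1 (voom), no low-count filter, a replicate block, sex as a covariate, and leaving out each mouse. The fits were tested on simulated data. There edgeR called 70.1% of 194 changed genes, with 50% at a log2 change of 1 and 89.8% at 2. It also called 12 unchanged genes.

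The 10 genes, the lists and the tests were chosen with earlier results of these data known, and the motifs after the promoter sequences were read. By rule, all 10 genes, their paralogs on the lists, Smad4 and any listed gene past the threshold could be named. Actb, Actg1, Myo1d, Usp37, Sytl3, Ptprc, Cd8a, Slc9a3r2, Lct, Fabp2 and Whrn were named after their values were seen or as the source of an overlap. Not every gene on the lists is reported here.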

Additional observations from a re-analysis of the deposited data

How the results depend on the processing

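Of the 10 microvillus genes, 7 to 10 were called lower and 0 higher in every alternative: 10 with RLE factors, DESeq2 and voom, 9 with sex as a covariate, 8 with no low-count filter, 7 with library size alone, and 7 to 9 when each mouse was left out. Vil1, Espn, Pls1, Eps8, Ezr, Cdhr2 and Myo7b passed in every one. Among all alternatives, 114 log2 fold changes of the 10 genes stayed on their side of the threshold, 13 lost a call, 3 gained one (Ush1c) and 0 reversed. Scaled by library size alone, 1425 genes were lower in place of 2273, 5 related genes were higher in place of 1, Actg1 turned to 0.057, and Myo1e and Sptan1 lost their calls (adjusted p = 0.135 and 0.159 in edgeR). This scaling leaves out the TMM factors, 0.912 to 0.961 in wild-type and 1.06 to 1.08 in the double mutant. Leaving out each mouse gave 1630 to 2361 genes lower, 14 to 17 related genes lower and 1 to 2 related genes higher. The second was Whrn, without wild-type replicate 1, and Myo7a, which is no called gene, ran from -0.021 without that mouse to 0.24 without wild-type replicate 2; the cause was not tested.

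With the replicate number as a block, 7 of the 10 genes were lower (Myo1a and Cdhr5 lost their calls, at adjusted p = 0.0721 and 0.0956 in edgeR), with 1750 genes lower and 2084 higher in all and 14 related genes lower and 1 higher. Myo1e and Sptan1 also lost theirs. Deviations of mice with the same number correlated at 0.0123, -0.146 and 0.00792, and no mouse correlated best with its own number. With 3 mice a group such correlations cannot settle whether the numbers pair the mice, which no label states. Replicate 1 was the male in both groups.

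With 3 mice a group, an exact test of a single value cannot go below p = 0.1, and depth limits low genes such as Rdx (16 to 55 counts).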
